A study of Mus musculus with 7 samples.

Results

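Chromosomes 1, 8, 12 and 19 carried 138132 of the 536904 ATAC-seq peaks listed for male TXY mouse embryonic stem cells. These 4 of the 19 autosomes were chosen because the number of peaks on them was uneven between genotypes, or relative to the other chromosomes, in the same lists. The peak numbers, and every comparison between the TXY lists below, are therefore descriptions with no test. No cut-off was given for the choice. Chromosome 11, which was not chosen, had densities relative to the 15 autosomes that were not chosen of 1.03 in deltaRepA plus dox, 1.06 in deltaRepA no dox, 1.24 in WT plus dox and 1.30 in WT no dox, and its ratio between genotypes was further from 1 than that of chromosome 1.

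The TXY cells are of the J1 male line. Their single X chromosome carries an Xist gene that doxycycline switches on at its own locus, with Xist either lacking its RepA region (deltaRepA) or keeping it (WT). Each genotype was profiled after 48 hours in 2 ug/mL doxycycline (plus dox) and without it (no dox), giving 4 groups of 1 sample: deltaRepA plus dox, deltaRepA no dox, WT plus dox and WT no dox. Per the labels, each replicate held 50K cells, and for each of the 4 groups 1 list from merged libraries was used. All intervals below are 95% intervals that cover counting error alone, no difference between groups has a replicate check, and the sources used here do not say whether each genotype is 1 clone. Both plus-dox samples are described in the labels with the name of a no-dox list, and files were assigned by title. Female embryonic stem cells (mESC), female deltaFT neural progenitors (NPC) and female WT NPC of the same series, with 2 library lists per line, served as an outside scale.

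ATAC-seq marks open chromatin by the places where the Tn5 transposase inserts sequencing adapters. A peak is called where tags pile up above the local background, so a chromosome that contributes more DNA to a library gains tags at every site, and weak sites are the first to pass the caller's threshold. Mouse embryonic stem cells in culture are known to gain whole chromosomes, chromosome 8 among the most frequent, and to gain or lose segments. Copy number was not measured here, and its part in the values below was not tested.

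The TXY lists held 142526 peaks in deltaRepA plus dox, 129055 in deltaRepA no dox, 125498 in WT plus dox and 139825 in WT no dox. The fold enrichment and −log10 p that the authors deposited for each peak could be solved for the number of tags at its summit (the tag pileup) and the expected local background. In all 4 lists, 100% of autosomal peaks gave a whole number of tags within 0.01. The lowest background in a list, which is the genome-wide one, was 2.168 tags in deltaRepA plus dox, 2.012 in deltaRepA no dox, 2.136 in WT plus dox and 3.807 in WT no dox. This background was thus close between the plus-dox lists of the 2 genotypes, which differed in peak number, and highest in the WT no-dox list. Read totals were not at hand, so depth itself is unknown. Every ratio below is divided by the same ratio pooled over the 15 other autosomes.

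Chromosome 1 had the densest peaks of any autosome in all 4 TXY lists. It held 16434 peaks in deltaRepA plus dox, 15429 in deltaRepA no dox, 16087 in WT plus dox and 18511 in WT no dox. That is 84.6, 79.5, 82.8 and 95.3 peaks per Mb in the same order, whereas the densest of the 15 others reached 63.1, 56.8, 58.1 and 66.9. Relative to the 15 others pooled, the density of chromosome 1 was 1.53 in deltaRepA plus dox, 1.60 in deltaRepA no dox, 1.77 in WT plus dox and 1.85 in WT no dox. In the female lists it was among the sparsest, ranking 15th of 19 in both mESC libraries, at 0.925 and 0.914, and 18th in all 4 progenitor libraries. The female lists start at a −log10 p of about 3 and the TXY lists at about 2, but the contrast was also present among peaks with a −log10 p of 10 to 20. In that range chromosome 1 had a relative density of 1.28, 1.28, 1.24 and 1.28 in the 4 TXY lists, against 0.886 and 0.942 in the mESC libraries.

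Chromosome 8 was dense in WT and ordinary in deltaRepA. It held 7373 peaks in deltaRepA plus dox and 6632 in deltaRepA no dox, against 9611 in WT plus dox and 10861 in WT no dox. Its relative density was 1.03 and 1.04 in the deltaRepA lists, against 1.59 and 1.64 in the WT lists, which placed it 8th of 19 in both deltaRepA lists and 2nd in both WT lists. In mESC it was 1.01 and 1.02.

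Chromosome 19 followed the same order. It held 2937 peaks in deltaRepA plus dox and 2723 in deltaRepA no dox, against 3707 in WT plus dox and 3908 in WT no dox. Its relative density was 0.910 and 0.942 in deltaRepA, against 1.36 and 1.30 in WT, where it ranked 3rd. In mESC it was 1.08 and 1.09, between the genotypes. In all 4 progenitor libraries it ranked 2nd, at 1.12 to 1.18, so a high rank of chromosome 19 was also found outside the TXY WT lists.

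Chromosome 12 went the other way. It held 7026 peaks in deltaRepA plus dox and 6602 in deltaRepA no dox, against 4868 in WT plus dox and 5423 in WT no dox. Its relative density was 1.07 and 1.12 in deltaRepA, ranking 4th in both lists, against 0.879 and 0.890 in WT, where it ranked 18th and 17th. In mESC it was 1.11 and 1.20, ranking 3rd and 2nd, and in the progenitor libraries it ranked from 12th to 17th, so the outside scale itself differed between female cell types on this chromosome.

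**Figure D1:**
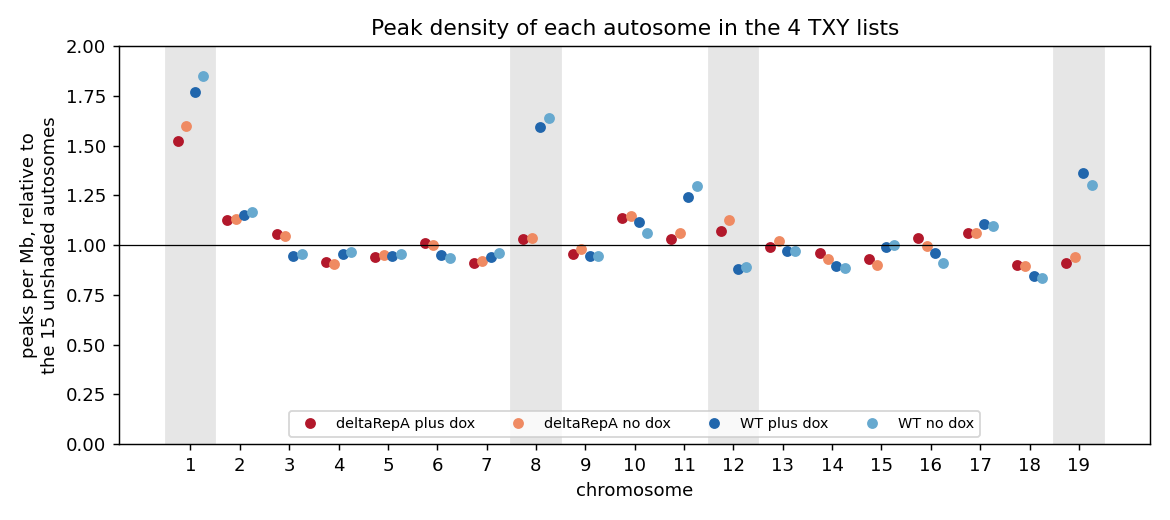
Peaks per Mb on each autosome (x axis), divided by the pooled density of the 15 unshaded autosomes of the same list (y axis), for the 4 TXY lists (colours, 1 sample each). Chromosome 1 lies between 1.53 and 1.85 in all lists, chromosomes 8 and 19 are high in the WT lists alone, and chromosome 12 is higher in the deltaRepA lists.

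Between genotypes, the number of peaks on chromosome 8 was lower in deltaRepA than in WT by the same factor with and without dox. The deltaRepA over WT ratio was 0.648 (0.627 to 0.668) plus dox and 0.634 (0.614 to 0.654) no dox, the lowest of the 19 autosomes in both. Chromosome 19 came next, at 0.669 (0.637 to 0.703) plus dox and 0.723 (0.688 to 0.760) no dox. Chromosome 12 had the highest ratio of the 19, 1.22 (1.17 to 1.27) plus dox and 1.26 (1.22 to 1.31) no dox. Chromosome 1 had a ratio of 0.862 (0.842 to 0.883) plus dox and 0.865 (0.845 to 0.885) no dox. The 15 others ranged from 0.831 to 1.12 plus dox and from 0.815 to 1.096 no dox, with chromosome 11 at the low end and chromosome 3 at the high end of both. Chromosome 1 thus lay inside the range of the other autosomes, and chromosomes 8, 12 and 19 outside it.

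Dox moved these numbers less than genotype did. The plus dox over no dox ratio of chromosomes 1, 8, 12 and 19 was 0.953, 0.995, 0.953 and 0.965 in deltaRepA and 0.956, 0.974, 0.988 and 1.04 in WT, with the 15 others between 0.971 and 1.04 in deltaRepA and between 0.955 and 1.06 in WT. In deltaRepA, chromosomes 1, 12 and 19 thus lay just below the lowest of the 15 others. The intervals of chromosomes 1 and 12 there, 0.931 to 0.976 and 0.920 to 0.986, left out 1. The only replicate libraries of the series, those of the female lines, gave a similar spread. Library 2 over library 1 lay between 0.981 and 1.08 for the same 4 chromosomes in the 3 lines, with chromosome 12 of mESC the highest, and between 0.952 and 1.06 for the 15 others. The genotype ratios of chromosomes 8, 12 and 19 were further from 1 than any of these, but they come from other cells and show only how far libraries of 1 line can differ.

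On chromosomes 1 and 8 the deltaRepA over WT ratio was lower among peaks with a −log10 p under 5 than in the classes of 10 and over. On chromosome 8 the deltaRepA over WT ratio among peaks with a −log10 p under 5 was 0.546 plus dox and 0.516 no dox. Among peaks of 10 to 20 it was 0.791 plus dox and 0.769 no dox, and among those of 20 to 40 it was 0.833 and 0.757. The ratio of chromosome 8 thus stayed below 1 among strong peaks, but was not always below that of the other autosomes. At 10 to 20 it was below their lowest, 0.864 plus dox and 0.812 no dox. At 20 to 40 it was inside their range plus dox, with their lowest at 0.751, and below their lowest, 0.780, no dox. At 40 and over it was 0.727 plus dox and 0.827 (0.666 to 1.03) no dox. Both were inside their range, with their lowest at 0.682 and 0.669.

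On chromosome 1 the ratio was below 1 among weak peaks. Among strong peaks it was about 1 or above, mostly inside the range of the other autosomes. The ratio was 0.782 (0.757 to 0.807) plus dox and 0.815 (0.788 to 0.843) no dox under 5. It was 1.03 (0.964 to 1.11) plus dox and 0.997 (0.935 to 1.06) no dox at 10 to 20, and 1.11 (1.00 to 1.22) plus dox and 1.09 (0.994 to 1.20) no dox at 20 to 40. Counting only peaks with a −log10 p of at least 10 gave 1.06 plus dox and 1.04 no dox, so the lower number of chromosome 1 peaks in deltaRepA belonged to weak peaks. The relative density of chromosome 1 also depended on strength within each list. It was 1.69, 2.00, 2.17 and 2.45 under 5, against 1.16, 1.24, 1.05 and 1.13 at 20 to 40, in deltaRepA plus dox, deltaRepA no dox, WT plus dox and WT no dox. Among the strongest peaks, of 40 and over, it was higher again, at 1.68, 1.74, 1.52 and 1.38 in the same order. The few mESC peaks of that strength on chromosome 1, 17 in library 1 and 35 in library 2, gave 1.30 and 1.60, so in this class the TXY and mESC lists were not apart.

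Chromosomes 12 and 19, like chromosome 8, kept their direction in every class. On chromosome 12 the deltaRepA over WT ratio lay between 1.11 and 1.31 over the 5 classes plus dox and between 1.19 and 1.35 no dox. At 10 to 20 plus dox it was 1.11 (0.9995 to 1.22), inside the range of the 15 others, whose highest was 1.14. At 40 and over plus dox it was 1.27, also inside, with their highest at 1.29. On chromosome 19 it lay between 0.618 and 0.804 in the first 4 classes plus dox and between 0.676 and 0.786 no dox. At 20 to 40, where it was 0.804 and 0.786, it was inside the range of the 15 others, whose lowest were 0.751 and 0.780. Among the strongest peaks, with a −log10 p of 40 and over, chromosome 19 had 35 peaks in deltaRepA plus dox and 34 in deltaRepA no dox, against 137 in WT plus dox and 176 in WT no dox. The ratio there was 0.353 (0.243 to 0.514) plus dox and 0.495 (0.342 to 0.718) no dox, below the lowest of the 15 others, 0.682 and 0.669.

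**Figure D2:**
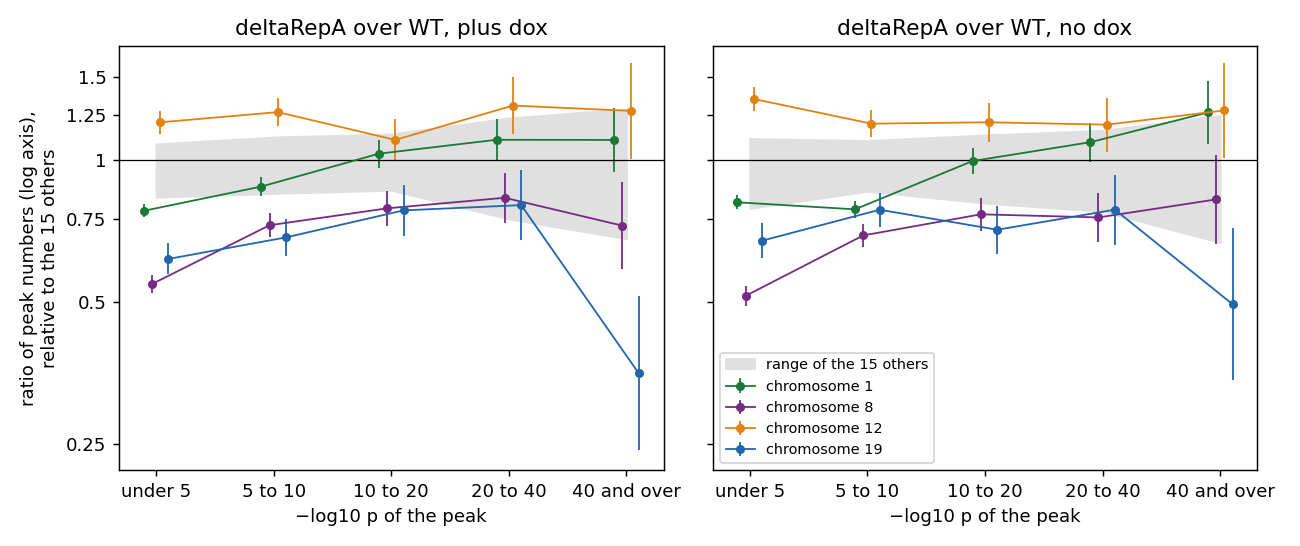
Ratio of peak numbers, deltaRepA over WT (log axis), in 5 classes of −log10 p (x axis), plus dox on the left and no dox on the right. Points are chromosomes with 95% counting intervals, and the grey band is the range of the 15 others. Chromosome 1 moves from 0.782 and 0.815 in the weakest class to 1.11 and 1.09 at 20 to 40, while chromosomes 8 and 19 stay below 1 and chromosome 12 above it.

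The tag pileups at shared peaks compare the same sites between lists, although they come from the same contrasts. A site enters only if it was called in all 4 lists, so sites too weak to be called in 1 genotype were left out. Across the autosomes 61900 peaks were found in all 4 TXY lists, 6642 of them on chromosome 1, 3794 on chromosome 8, 2692 on chromosome 12 and 1692 on chromosome 19. On chromosome 8 their summits summed to 80167 tags in deltaRepA plus dox and 74715 in deltaRepA no dox, against 98573 in WT plus dox and 144869 in WT no dox. Relative to the 15 others, the deltaRepA over WT ratio was 0.837 (0.829 to 0.845) plus dox and 0.824 (0.817 to 0.832) no dox. On chromosome 19 the sums were 33469 and 31537 tags in deltaRepA, against 44872 and 62159 in WT, and the ratio was 0.768 (0.757 to 0.779) plus dox and 0.811 (0.7996 to 0.822) no dox. These were the lowest ratios of the 19 autosomes in both dox states, ahead of chromosome 11 at 0.875 plus dox and 0.882 no dox.

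Chromosome 12 had the highest. Its summits summed to 66259 tags in deltaRepA plus dox and 62336 in deltaRepA no dox, against 59698 in WT plus dox and 86825 in WT no dox, a ratio of 1.14 (1.13 to 1.16) plus dox and 1.15 (1.14 to 1.16) no dox. On chromosome 1 the sums were 152439 and 143439 in deltaRepA, against 153514 and 225557 in WT, and the ratio was 1.02 (1.01 to 1.03) in both dox states. The 15 others ranged from 0.875 to 1.09 plus dox and from 0.882 to 1.07 no dox. Peak number and pileup thus had the same direction on chromosomes 8, 12 and 19, with the pileup nearer to 1, and lay on opposite sides of 1 on chromosome 1. The pileup direction of chromosome 1 was not stable: with a mean pileup of at least 40 its ratio was 0.995 plus dox and 1.00 no dox, and its median over peaks plus dox was 1.00. The plus dox over no dox pileup ratio lay between 0.992 and 1.00 for the 4 chromosomes in deltaRepA and between 0.987 and 1.05 in WT, with chromosome 19 of WT the highest. The 15 others lay between 0.990 and 1.01 in deltaRepA and between 0.979 and 1.02 in WT. Chromosome 19 of WT, at 1.05 (1.03 to 1.06), was thus beyond them.

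**Figure D3:**
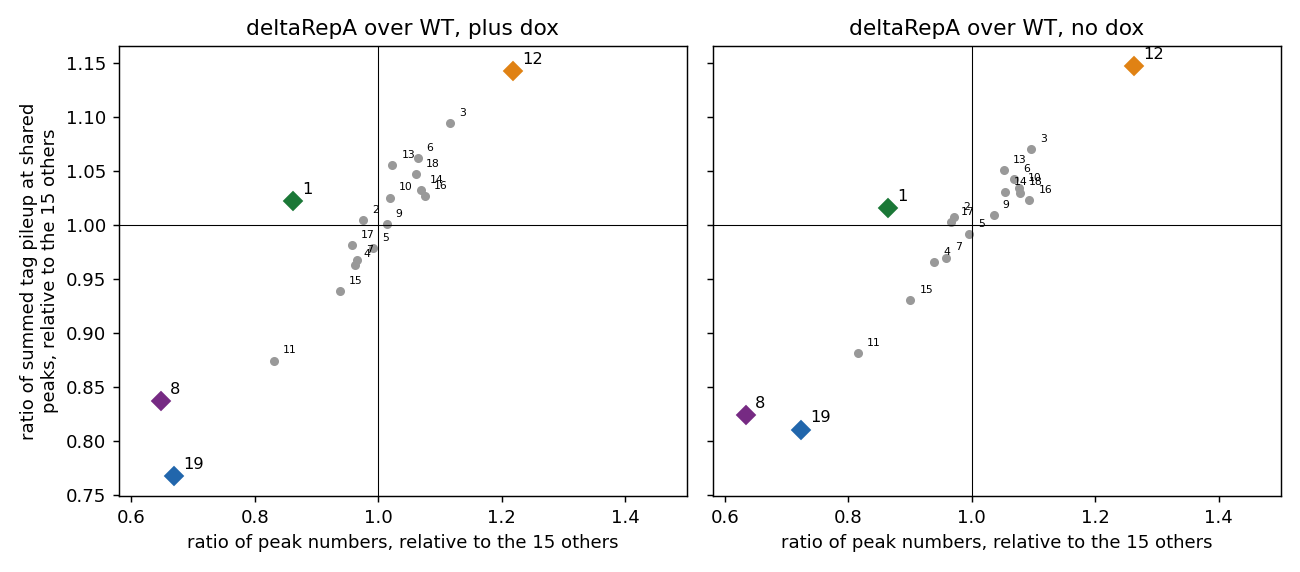
Each point is an autosome, labelled by its number. The x axis is the deltaRepA over WT ratio of peak numbers and the y axis that of summed tag pileup at peaks shared by all 4 lists, both relative to the 15 others. Chromosomes 8 and 19 lie at the lower left and chromosome 12 at the upper right in both dox states, while chromosome 1 has a peak number ratio of 0.862 and 0.865 at a pileup ratio of 1.02.

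Ranks of the shared peaks within each list moved likewise. The mean percentile rank of −log10 p on chromosome 8 was 46.8 and 46.8 in deltaRepA, against 52.2 and 53.1 in WT, a difference of -5.36 points plus dox and -6.37 points no dox. On chromosome 19 the difference was -8.73 plus dox and -7.90 no dox, and on chromosome 12 it was 4.94 plus dox and 5.25 no dox. The 15 others lay between -5.31 and 4.41 points plus dox and between -5.30 and 3.42 no dox. The chromosome 8 difference plus dox, at -5.36, was thus close to the lowest of the other autosomes, and that of chromosome 1, 1.62 plus dox and 1.94 no dox, lay within their range. By ranks of fold enrichment the differences were smaller: -2.66 plus dox and -2.44 no dox on chromosome 8, inside the range of the 15 others, whose lowest were -4.09 and -3.92. On chromosome 12 they were 2.54 plus dox, inside that range, and 2.56 no dox, against a highest of 3.44 and 2.25 on the 15 others. On chromosome 19, at -5.93 plus dox and -5.02 no dox, they were below it.

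A comparison with the female mESC libraries placed the genotypes on an outside scale, although the TXY values in it come from the lists on which the chromosomes were chosen. Of 34309 autosomal peaks found in all 4 TXY lists and in both mESC libraries, the 33462 with whole-number pileups in both libraries were used. Over mESC library 2, the summed pileup of chromosome 1 was 1.245 in deltaRepA plus dox, 1.253 in deltaRepA no dox, 1.22 in WT plus dox and 1.23 in WT no dox. Chromosome 8 stood at 1.00 and 0.992 in deltaRepA, against 1.21 and 1.21 in WT. Chromosome 19 stood at 0.942 and 0.953 in deltaRepA, against 1.26 and 1.19 in WT. The 15 others ranged from 0.914 to 1.099 in the deltaRepA lists and from 0.954 to 1.05 in the WT lists. Taken whole, chromosomes 8 and 19 were thus high in WT, while their values in deltaRepA lay within the range of the 15 others. The part of chromosome 19 before 21 Mb was low in deltaRepA, at 0.846 plus dox and 0.841 no dox. Those 2 values were below 0.914, the lowest of the 15 others taken whole. WT stood at 1.36 and 1.21 in that part. After 21 Mb the values were 0.997 and 1.02 in deltaRepA, against 1.21 and 1.18 in WT. Chromosome 12 was low in both genotypes, at 0.864 and 0.872 in deltaRepA and 0.744 and 0.757 in WT. The mESC lists were themselves dense in strong peaks there: chromosome 12 had a relative density of 1.53 in library 1 and 1.40 in library 2 at a −log10 p of 20 to 40, and 4.02 and 3.22 at 40 and over, from 32 and 43 peaks. A low ratio on chromosome 12 therefore cannot be told apart from a high mESC value. The same 4 chromosomes lay between 0.999 and 1.01 when mESC library 2 was set over library 1.

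The local background differed between genotypes in the same direction as the peak numbers on chromosomes 8, 12 and 19. It rises above the genome-wide value where tags are dense around a peak. On chromosome 1 it was raised at 65.6% of peaks in deltaRepA plus dox, 68.3% in deltaRepA no dox, 64.2% in WT plus dox and 66.7% in WT no dox, more than on any of the 15 others, where the highest was 47.4%, 50.9%, 50.3% and 55.6%. On chromosome 8 it was 45.8% and 50.0% in deltaRepA, against 60.2% and 62.0% in WT. On chromosome 12 the share was 57.7% and 61.2% in deltaRepA, against 39.2% and 41.9% in WT, so that in deltaRepA it was above the highest of the 15 others although its pileup over mESC was low. Chromosome 19 had 38.4% and 42.5% in deltaRepA, against 52.2% and 54.8% in WT. Peak width differed less. The median peak width of the 4 chromosomes ran from 331 to 369 bp in the plus-dox lists and from 353 to 390 bp in the no-dox lists, against 332 to 382 bp and 347 to 396 bp on the 15 others. Within lists, chromosome 1 in WT, at 331 and 354 bp, was narrower than any of the 15 others, whose lowest were 338 and 360. Chromosome 8 in WT plus dox, at 337 bp, was just below that lowest too. Chromosome 19 in deltaRepA, at 369 and 388 bp, was wider than their highest, 368 and 385. The median fold enrichment of chromosomes 1 and 8 in WT was below their lowest. It was 3.37 and 3.48 plus dox, against 3.51, and 3.10 and 3.12 no dox, against 3.33. In deltaRepA, chromosome 1 was also below the lowest of the 15 others no dox, at 3.50 against 3.65. Plus dox it equalled their lowest, 3.47.

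**Figure D4:**
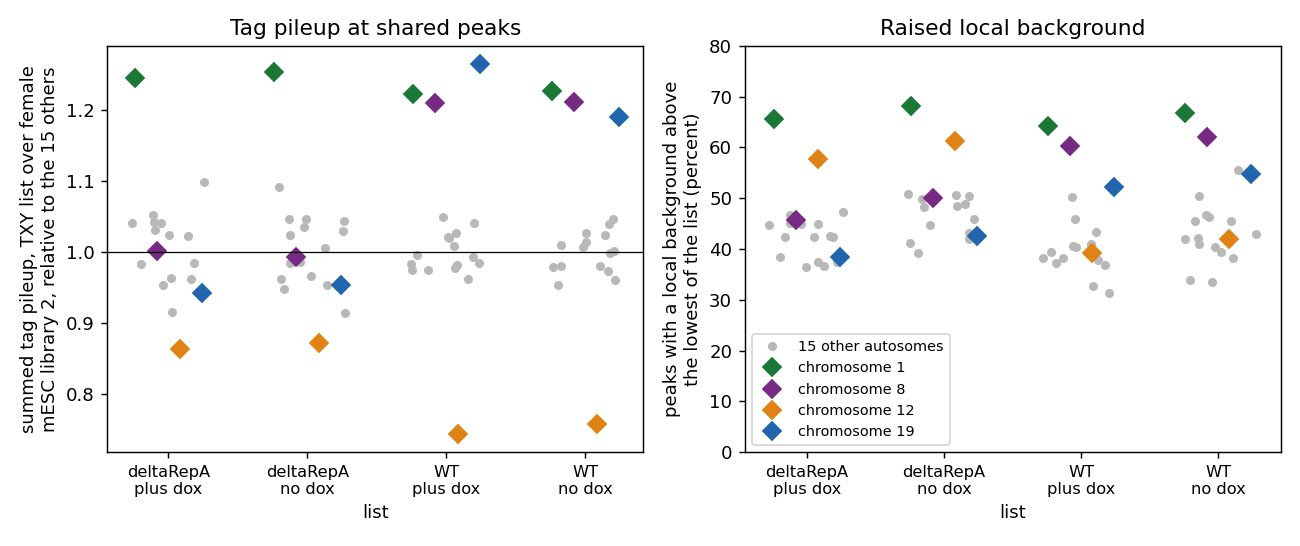
Left, summed tag pileup of each TXY list over female mESC library 2, relative to the 15 others. Right, percent of peaks whose local background lies above the lowest value of the list. Diamonds are chromosomes 1, 8, 12 and 19 and grey points the 15 other autosomes, spread sideways for sight. Chromosome 1 is high on both scales in all 4 lists and chromosome 8 in the WT lists, at 1.21 and 60.2% or 62.0%.

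Along the chromosomes, the peak number ratio was taken in 10 Mb windows of at least 50 peaks, and a window was called lower at a ratio of 0.8 or less and higher at the reciprocal of 0.8 or more. Of the 54 windows on the 4 chromosomes, 27 were lower and 5 higher in deltaRepA plus dox (15.9% lower and 6.20% higher of all 258 autosomal windows), and 30 were lower and 3 higher no dox (17.8% lower and 11.6% higher of all windows). The chromosomes were chosen on this contrast, so these shares describe them only. All 14 windows of chromosome 8 were lower in both dox states, from 0.560 to 0.778 plus dox and from 0.577 to 0.739 no dox. Chromosome 19 had 6 lower of 7 plus dox and 7 of 7 no dox, with 10 to 20 Mb the lowest, at 0.489 plus dox and 0.614 no dox. The 204 windows of the 15 others had 14 lower and 11 higher plus dox, and 16 lower and 27 higher no dox.

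Chromosomes 1 and 12 were uneven along their length. Every lower window of chromosome 1, 6 plus dox and 7 no dox, lay beyond 130 Mb, and the lowest was 130 to 140 Mb, at 0.708 plus dox and 0.699 no dox. The highest was 20 to 30 Mb, at 1.14 plus dox and 1.24 no dox. On chromosome 12 the highest was 60 to 70 Mb, with 741 peaks in deltaRepA plus dox and 672 in deltaRepA no dox, against 400 in WT plus dox and 362 in WT no dox, a ratio of 1.56 plus dox and 1.93 no dox. The next was 90 to 100 Mb, at 1.52 plus dox and 1.82 no dox. The lowest lay near the start, 10 to 20 Mb at 0.706 plus dox and 20 to 30 Mb at 0.731 no dox.

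The single boundary that best divided each chromosome was sought in 1 Mb steps by the gain in binomial log likelihood, at least 10 Mb from either end. On chromosome 1 it fell at 125 Mb plus dox and 123 Mb no dox. The deltaRepA over WT ratio was 0.939 before and 0.763 after it plus dox, and 0.978 before and 0.742 after it no dox. The gain ranked 2nd of the 19 autosomes plus dox and 1st no dox, and boundaries from 123 to 128 Mb plus dox and from 118 to 123 Mb no dox came within 2 log likelihood units of the best. Shared pileup placed the boundary at 128 Mb in both dox states, with a median ratio of 1.09 before and 0.938 after it plus dox, and 1.099 before and 0.932 after it no dox. The gain of this pileup boundary ranked 10th of the 19 autosomes plus dox and 7th no dox, so by pileup it did not stand out. The binomial gain grows with the number of peaks, and chromosome 1 had the most. Set over mESC library 2, the part before 123 Mb stood at 1.34 and 1.34 in deltaRepA, against 1.24 and 1.22 in WT. The part after it stood at 1.14 and 1.16 in deltaRepA, against 1.21 and 1.24 in WT, so both parts were above the 15 others pooled in all 4 lists.

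On chromosome 12 the boundary fell at 58 Mb plus dox and 57 Mb no dox, and less sharply: boundaries from 47 to 61 Mb plus dox and from 34 to 60 Mb no dox came within 2 units. The ratio was 0.928 before and 1.35 after it plus dox, and 0.966 before and 1.38 after it no dox, and the gain ranked 3rd and 5th. Shared pileup placed it at 36 Mb plus dox and 35 Mb no dox. Over mESC library 2, the part before 57 Mb stood at 0.973 and 0.970 in deltaRepA, against 1.02 and 0.987 in WT. The part after it stood at 0.834 and 0.845 in deltaRepA, against 0.670 and 0.696 in WT. The low values against mESC were therefore in the distal part. In 10 Mb windows the WT no-dox list was between 0.946 and 1.07 up to 70 Mb and between 0.622 and 0.747 beyond it.

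Chromosome 8 had no marked boundary: its best one, at 80 Mb plus dox and 76 Mb no dox, ranked 14th and 19th, with ratios of 0.620 before and 0.683 after it plus dox and 0.650 before and 0.618 after it no dox. Over mESC library 2 all 14 windows of chromosome 8 were above 1 in both WT lists, from 1.14 to 1.41 plus dox and from 1.13 to 1.55 no dox, and all 7 windows of chromosome 19 likewise, from 1.11 to 1.37 and from 1.09 to 1.251. Of the 202 windows of the 15 others, 103 plus dox and 106 no dox were above 1 in WT, reaching 1.22 and 1.23, so the lowest windows of chromosomes 8 and 19 were within their range. On chromosome 19 the best boundary was at 23 Mb plus dox and 21 Mb no dox, ranking 5th and 16th, with 0.544 before and 0.742 after it plus dox and 0.652 before and 0.755 after it no dox. By shared pileup it lay at 13 Mb in both dox states, with a median ratio of 0.596 before and 0.846 after it plus dox. No dox the median ratio was 0.659 before and 0.863 after it, and its gain ranked 2nd in both. On this chromosome 13 Mb was the first boundary the search allowed, so the pileups did not locate a boundary. The cause of the lower proximal value was not tested. Boundaries were not particular to these chromosomes: chromosome 15 ranked 1st plus dox and 2nd no dox.

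**Figure D5:**
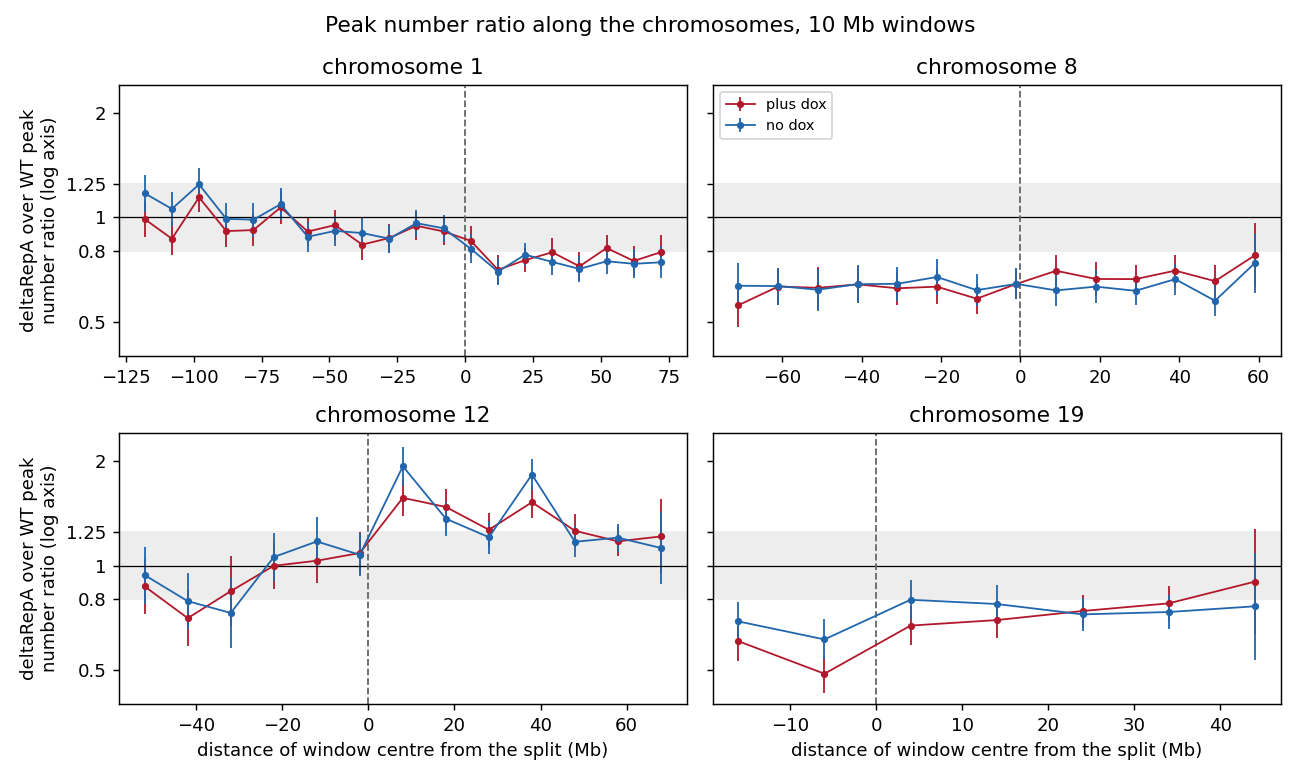
Ratio of peak numbers, deltaRepA over WT (log axis), in 10 Mb windows, by the distance of the window's centre from the best boundary without dox (dashed line, at 123, 76, 57 and 21 Mb for chromosomes 1, 8, 12 and 19). Bars are 95% counting intervals and the band spans 0.8 to its reciprocal. Chromosome 8 stays at 0.560 to 0.778 throughout, while chromosome 1 is lower beyond its boundary and chromosome 12 higher beyond its own.

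Shares of peaks missing from the other genotype differed on the same chromosomes, though less sharply on chromosome 12. Of the chromosome 8 peaks in WT, 49.4% (48.4 to 50.4) plus dox overlapped no deltaRepA plus-dox peak, against 36.6% of all autosomal peaks, and 53.4% (52.4 to 54.3) no dox overlapped no deltaRepA no-dox peak, against 39.6%. On chromosome 19 the shares were 43.4% plus dox and 44.6% no dox. In the other direction, 51.0% (49.8 to 52.1) of chromosome 12 peaks in deltaRepA plus dox overlapped no WT plus-dox peak, against 43.2% of all autosomal peaks, and 43.0% (41.8 to 44.2) did not no dox, against 33.8%. Single others reached 50.6% plus dox and 40.9% no dox, both on chromosome 14, so the plus-dox share of chromosome 12 was within counting error of an autosome that was not chosen. For WT peaks single others reached 38.1% plus dox and 41.2% no dox. On chromosome 1 these shares were 45.3% plus dox and 37.1% no dox for deltaRepA peaks, and 44.5% plus dox and 47.8% no dox for WT peaks. Absence was most frequent among weak peaks. Of the chromosome 8 peaks in WT, 75.7% plus dox and 82.4% no dox were absent from deltaRepA at a −log10 p under 5, against 61.6% and 68.5% of all autosomal peaks of that class in WT. At 10 to 20, 169 of 1537 (11.0%, 9.47 to 12.7) were absent no dox, against 7.83% of all autosomal peaks of that class. At 20 to 40, 8 of 893 (0.896%) were absent no dox, close to the 0.953% of all autosomal peaks. The higher share on chromosome 8 was thus seen no dox at 10 to 20 but not at 20 to 40.

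Peaks found in both lists of 1 genotype and in neither of the other were rarer. For deltaRepA they made up 12.1% of peaks on chromosome 12, 7.60% on chromosome 1, 4.66% on chromosome 19 and 3.69% on chromosome 8, against 8.50% of all autosomal peaks and 5.12% to 12.4% on single others. For WT they made up 12.1% on chromosome 19, 11.0% on chromosome 8, 8.68% on chromosome 1 and 5.26% on chromosome 12, against 7.58% of all autosomal peaks and 5.08% to 9.34% on single others. The values of chromosomes 8 and 19 lay outside the range of single others in both genotypes, while chromosome 12 lay inside both. Along chromosome 12 the WT-specific share was 9.78% before 57 Mb and 3.50% after it, and the deltaRepA-specific share 9.94% before and 12.7% after it.

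Single sites show the sizes involved. The strongest peak of chromosome 8 in all 4 lists, at chr8:55809394-55810145 (mm9, 752 bp), had 131 tags in deltaRepA plus dox and 124 in deltaRepA no dox, against 134 in WT plus dox and 162 in WT no dox. The strongest of chromosome 19, at chr19:12039553-12040406, had 102 and 96 tags in deltaRepA, against 135 and 164 in WT. These are raw tag numbers, and the WT no-dox list had the highest genome-wide background. The strongest of chromosome 1, at chr1:142325763-142326422, had 145 and 132 tags in deltaRepA, against 140 and 155 in WT. That of chromosome 12, at chr12:3109783-3110219 near the start of the listed chromosome, had 117 and 115 in deltaRepA, against 136 and 134 in WT.

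Strong sites of 1 genotype alone were few and of moderate size. On chromosome 12 the leading peak particular to both deltaRepA lists, at chr12:68382864-68383407, lay in the 60 to 70 Mb window and had 39 tags plus dox and 37 no dox, with −log10 p of 35.4 and 34.0. The leading one of WT on chromosome 19, at chr19:42176151-42176954, had 33 tags plus dox and 44 no dox, with −log10 p of 27.3 and 30.4. On chromosome 8 the leading WT peak, at chr8:63317274-63317740, had 25 tags plus dox and 40 no dox. The leading deltaRepA peak there, at chr8:44680234-44680823, had 31 tags plus dox and 20 no dox. Chromosomes 12 and 19 also held sites of the other genotype alone. A WT site at chr12:21840182-21840770 had 41 tags plus dox and 33 no dox. A deltaRepA site at chr19:16000220-16000419, 200 bp wide, had 46 tags plus dox and 10 no dox. Its −log10 p was 30.9 plus dox but 2.70 no dox, so it was weak without dox. On chromosome 1 the leading ones were chr1:175947940-175948570 for deltaRepA, with 32 tags plus dox and 31 no dox, and chr1:172626495-172627056 for WT, with 44 tags plus dox and 74 no dox.

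Next to the boundaries, a peak of chromosome 19 at chr19:20911826-20912695 had 15 tags in deltaRepA plus dox and 20 in deltaRepA no dox, against 42 in WT plus dox and 71 in WT no dox. Other named peaks beside the boundaries of chromosome 19 differed less. The one at chr19:21727065-21727861 had 78 and 81 tags in deltaRepA, against 123 and 145 in WT. At chr19:22213046-22214059 there were 61 and 70, against 83 and 108, and at chr19:23215134-23215945 57 and 45, against 74 and 95. Of the strongest peaks beside the chromosome 1 boundary, chr1:122983632-122984469 before it had 69 and 64 tags in deltaRepA, against 64 and 90 in WT. The one after it, chr1:123223733-123225086, had 74 and 61 in deltaRepA, against 71 and 97 in WT. Beside the chromosome 12 boundary, chr12:56936937-56937986 had 76 and 76 tags in deltaRepA, against 78 and 103 in WT. Genes at these sites were not named, since no annotation of the mm9 build was used.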

How the data were processed

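ATAC-seq peak lists from 7 samples in 7 groups were at hand, and the 4 TXY lists and the 6 library lists of the female lines were used. Reads were processed with cutadapt, Bowtie2 and MACS2 on mm9, per the submitters' processing notes. For versions, settings, duplicate handling and any Tn5 shift, the sources used here give nothing. Per the labels, reads were paired, of 75 bp. The deposited values are, per peak, the ratio of tags to local background (fold enrichment), its −log10 p and its −log10 q, as the authors' caller gave them. Every TXY peak had a −log10 p of at least 2.00 and a width of at least 200 bp. The 3 lists of peaks reproducible between libraries were not used. Read totals were not at hand, so depth is unknown.

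Peaks were assigned to bins and windows by their midpoint, and chromosome length was the span from the first to the last peak over all lists, since no genome of this build was used. Peaks were shared when they overlapped by 1 bp. Tag pileup and local background were solved from fold enrichment and −log10 p under the form MACS2 uses for both, chosen after seeing the data. Background values above the lowest fell on steps of 0.02. No test was made between the TXY lists, with 1 sample a group. Ratios carry intervals on the log scale, and shares carry Clopper-Pearson intervals. Tags are not independent molecules, so intervals cover counting error alone. The chromosomes and the comparisons were chosen with earlier results of these data known. Peaks were named by a rule: the strongest shared peak of each chromosome, the 2 strongest of each genotype alone and the strongest within 1 Mb of a boundary, of which some are printed. The scripts were tested on simulated data. Python 3.11.15, numpy 2.4.6, pandas 2.3.3, scipy 1.17.1 and matplotlib 3.10.9 were used. Alternatives were other sets of autosomes as the base, other strength limits, window sizes, window limits and overlaps.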

Additional observations from a re-analysis of the deposited data

How the results depend on the processing

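No paired analysis was possible because each TXY group has 1 sample, from merged libraries. With 1 sample a group, no setting bears on a test, and the cause of each shift below was not tested.

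The ratios of chromosomes 8, 12 and 19 kept their direction under all 8 settings: 0.639 to 0.799 plus dox and 0.612 to 0.770 no dox on chromosome 8, 1.18 to 1.29 and 1.17 to 1.32 on chromosome 12, 0.660 to 0.744 and 0.698 to 0.757 on chromosome 19. On chromosome 1 the deltaRepA over WT ratio turned over with strong peaks alone, to 1.06 plus dox and 1.04 no dox at a −log10 p of at least 10, and 1.09 and 1.11 at 20 or more. At a −log10 q of 5 or more it was 1.02 plus dox and 0.971 no dox, and there the plus dox over no dox ratio of deltaRepA turned over to 1.01 on chromosome 1 and 1.01 on chromosome 12.

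Plus dox, other values that moved beyond the counting interval were as follows. Relative to all 19 autosomes, chromosomes 1, 8 and 12 gave 0.904, 0.679 and 1.28. With equal numbers of strongest peaks chromosome 1 gave 0.828, and by bp covered chromosomes 1 and 8 gave 0.908 and 0.691. At a −log10 q of 5 chromosomes 8 and 19 gave 0.784 and 0.744, at a −log10 p of 10 they gave 0.797 and 0.743, and at 20 chromosomes 8 and 12 gave 0.799 and 1.29. No dox, relative to all 19, the values were 0.905, 0.663 and 1.32 for chromosomes 1, 8 and 12, and relative to the median other 0.835 and 0.612 for 1 and 8. At a −log10 q of 5 chromosomes 8 and 12 gave 0.761 and 1.17, at a −log10 p of 10 0.769 and 1.19, and at 20 0.770 and 1.20. With equal numbers they gave 0.660 and 1.20, and by bp covered chromosomes 1 and 8 gave 0.911 and 0.672.

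The rank difference of chromosome 19 plus dox was -12.4 among peaks of at least 10. By ranks of fold enrichment, chromosomes 8, 12 and 19 gave -2.66, 2.54 and -5.93 plus dox and -2.44, 2.56 and -5.02 no dox. Windows higher on the 4 chromosomes numbered 8 plus dox and 10 no dox past 1.1, and 2 plus dox past 1.5. Lower windows numbered 13 plus dox and 13 no dox past 1.5. Relative to all 19, 6 were higher no dox. Boundaries from peaks of at least 10 fell at 121, 37 and 16 Mb on chromosomes 8, 12 and 19 plus dox, and at 128, 31 and 14 Mb on 1, 12 and 19 no dox. From pileups they fell at 36 and 13 Mb on 12 and 19 plus dox, and at 128 and 13 Mb on 1 and 19 no dox. On chromosome 19, 13 Mb was the first boundary the search allowed.

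Shares of peaks absent from the other genotype moved under every setting. A stricter overlap, 0.5 of each peak, gave, plus dox, 56.2%, 58.0% and 53.2% for WT on chromosomes 1, 8 and 19 and 60.6% for deltaRepA on 12, and no dox 58.3%, 61.9%, 54.3% and 53.3%. Counting any peak within 500 bp as shared gave 40.4%, 46.4%, 41.0% and 47.3% plus dox and 44.0%, 50.6%, 42.2% and 40.4% no dox. Peaks of at least 10 gave 2.43%, 2.25%, 4.56% and 5.20% plus dox and 4.49%, 6.34%, 8.36% and 3.96% no dox.

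The pileup ratio relative to all 19 was 1.03 and 0.846 plus dox and 1.03 and 0.832 no dox for chromosomes 1 and 8. With a mean pileup of at least 40 it was 0.995 (turned over), 0.823, 1.12 and 0.729 for 1, 8, 12 and 19 plus dox and 1.00 and 0.788 for 1 and 19 no dox, and the WT plus dox over no dox ratio of chromosome 8 turned over to 1.01. As a median over peaks it was 1.00 and 0.784 for 1 and 19 plus dox. Lists of 1 sample allow no replicate error, and their read depth is unknown.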
